A study of Mus musculus with 20 samples.

Results

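Genes that cut, carry and display peptides for T cells were followed across the hippocampi of mice infused with human hippocampal small RNAs (sRNAs). The set held 10 genes of the 25190 in the deposited count table, and each was taken by its gene name. The class I genes were 6, namely H2-K1, H2-D1, B2m, Tap1, Psmb8 and Psmb9. The class II genes were 4, namely H2-Aa, H2-Ab1, H2-Eb1 and Cd74.

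In MHC class I presentation, the proteasome cuts proteins of the cell's own cytosol, the TAP transporter moves the peptides into the endoplasmic reticulum, and a heavy chain paired with beta-2 microglobulin carries them to the surface, where CD8 T cells read them. In class II presentation, an alpha and a beta chain are held by the invariant chain until an endosomal peptide takes its place, and CD4 T cells read the complex. Most cells can make class I molecules and raise them in response to interferon, whereas class II molecules belong to macrophages, dendritic cells and B cells. In healthy brain tissue, class II transcripts come mainly from macrophages at the borders and vessels, with little in resting microglia or neurons.

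The mice were wild-type C57BL/6JOlaHsd males aged 4 months, and cannulas implanted in both sides of the dorsal hippocampus delivered the infusions to CA1. Vehicle mice received artificial cerebrospinal fluid alone. Control mice received sRNAs pooled from human hippocampi of people without schizophrenia, whereas the sRNAs given to Pool 1 and to Pool 2 mice came from separate cohorts of patients. Tissue was taken 24 hours after the last behavioural test, and each of the 4 groups held 5 mice with 1 library per mouse. Every mouse therefore carried cannulas and had received an infusion, and each pool was a single mixture, so its 5 mice share 1 sRNA preparation. No mouse without cannulas was part of the comparison, so none of these levels is that of an untouched hippocampus.

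Total counts ran from 20588280 to 25543939 per library, with a median of 23343139, and 3 reads corresponded to 0.117 to 0.146 CPM, a gene's reads scaled to a common library of 1000000 reads. Pyramidal and granule cell genes were abundant in every library, with Slc17a7 between 1115 and 1835 CPM. The library labelled Pool 2 replicate 1 stood apart for the genes studied here, and each comparison is therefore given over all 20 libraries and again over the 19 libraries without it. The 6 comparisons between the 4 groups share groups, so their results are not independent of each other.

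Of the 10 genes, 8 lie within 1.27 Mb of the major histocompatibility complex on chromosome 17 (GRCm38), between positions 33996017 and 35267499. B2m lies on chromosome 2 (122147686 to 122153083), and Cd74 lies on another chromosome. Tap1 and Psmb9 stand head to head, with 225 bases between their starts in the RefSeq annotation. In the GENCODE annotation, Tap1 starts at 34187553 and Psmb9, on the opposite strand, at 34187764, so that their exons overlap. A promoter window of 300 bases, from 250 bases before to 50 after the annotated start, was found in RefSeq (GRCm38.p6) for 8 of the genes, and none was found for H2-Ab1 or Cd74. Sequence just upstream of 4 genes is printed below in lower case, because it is where the factors that switch these genes on are known to bind, with letters that match a searched motif on either strand in capitals. It comes from chr17:34000348-34000497 (minus strand) for H2-K1, chr2:122147537-122147685 (plus strand) for B2m, chr17:34287824-34287973 (minus strand) for H2-Aa and chr17:34305717-34305866 (plus strand) for H2-Eb1, each running 5' to 3' up to the base before the gene's annotated start.
H2-K1: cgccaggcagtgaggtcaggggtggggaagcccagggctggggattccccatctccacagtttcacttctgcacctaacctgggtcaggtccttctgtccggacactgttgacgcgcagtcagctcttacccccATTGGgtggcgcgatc
B2m: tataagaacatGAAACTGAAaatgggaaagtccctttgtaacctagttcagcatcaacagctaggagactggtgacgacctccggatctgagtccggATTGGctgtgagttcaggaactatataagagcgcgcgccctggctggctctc
H2-Aa: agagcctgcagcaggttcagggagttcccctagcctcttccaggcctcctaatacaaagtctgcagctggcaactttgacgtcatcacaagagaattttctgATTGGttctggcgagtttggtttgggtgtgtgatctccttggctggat
H2-Eb1: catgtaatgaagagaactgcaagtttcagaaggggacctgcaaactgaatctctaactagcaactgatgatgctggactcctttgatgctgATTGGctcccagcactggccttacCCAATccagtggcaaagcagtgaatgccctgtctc

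ATTGG, the core bound by NF-Y and known as the Y box of class I and class II promoters, stood in the windows of 7 of these 8 genes, all but Psmb8, and in 37.4% of 32851 mouse promoter windows of the same length. The Tap1 and Psmb9 windows overlap, and the match is the same stretch of DNA in both, so 1 match is counted for both genes. In the printed stretches, it is the capitals ATTGG of each gene, and its complement CCAAT appears once more in H2-Eb1. GAAANNGAA, a core of the element through which interferon regulatory factors act, stood in the B2m window alone among the 8 and in 8.56% of all windows. Both were searched on both strands, and a match of letters is a description of the window, not evidence that a factor binds there. Only exact matches to these letters were counted, so a window without a match can still hold a variant of the element. The windows of H2-K1 and H2-D1, which encode related class I heavy chains, shared an identical run of 47 bases, whereas those of H2-Aa and H2-Eb1 shared at most 8 bases in a row.

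Levels can be compared between genes only per length, so CPM was divided by the kilobases of merged exons. Over the 19 libraries, B2m, the light chain common to all class I molecules, had the highest median level at 98.2 CPM per kb. The classical heavy chains followed, with H2-D1 at 16.7 and H2-K1 at 10.3 CPM per kb. Cd74, the invariant chain, was next at 2.29 CPM per kb and was the most abundant class II gene. Psmb8 (1.26), H2-Eb1 (0.897), Tap1 (0.816), H2-Ab1 (0.711), H2-Aa (0.492) and Psmb9 (0.458 CPM per kb) completed the order. From Cd74 downwards, neighbours in this order overlapped in their ranges over the 19 libraries, with Psmb8 spanning 0.803 to 1.95 and H2-Eb1 0.325 to 2.34 CPM per kb. The H2-D1 and H2-K1 ranges (11.7 to 36.1 and 7.35 to 18.7 CPM per kb) also overlapped, whereas the lowest B2m value, 64.2, was above the highest of H2-D1. In Pool 2 replicate 1, Cd74 took the second place at 232 CPM per kb, behind B2m at 470, and all class II genes stood above Psmb8, Tap1 and Psmb9.

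**Figure D1:**
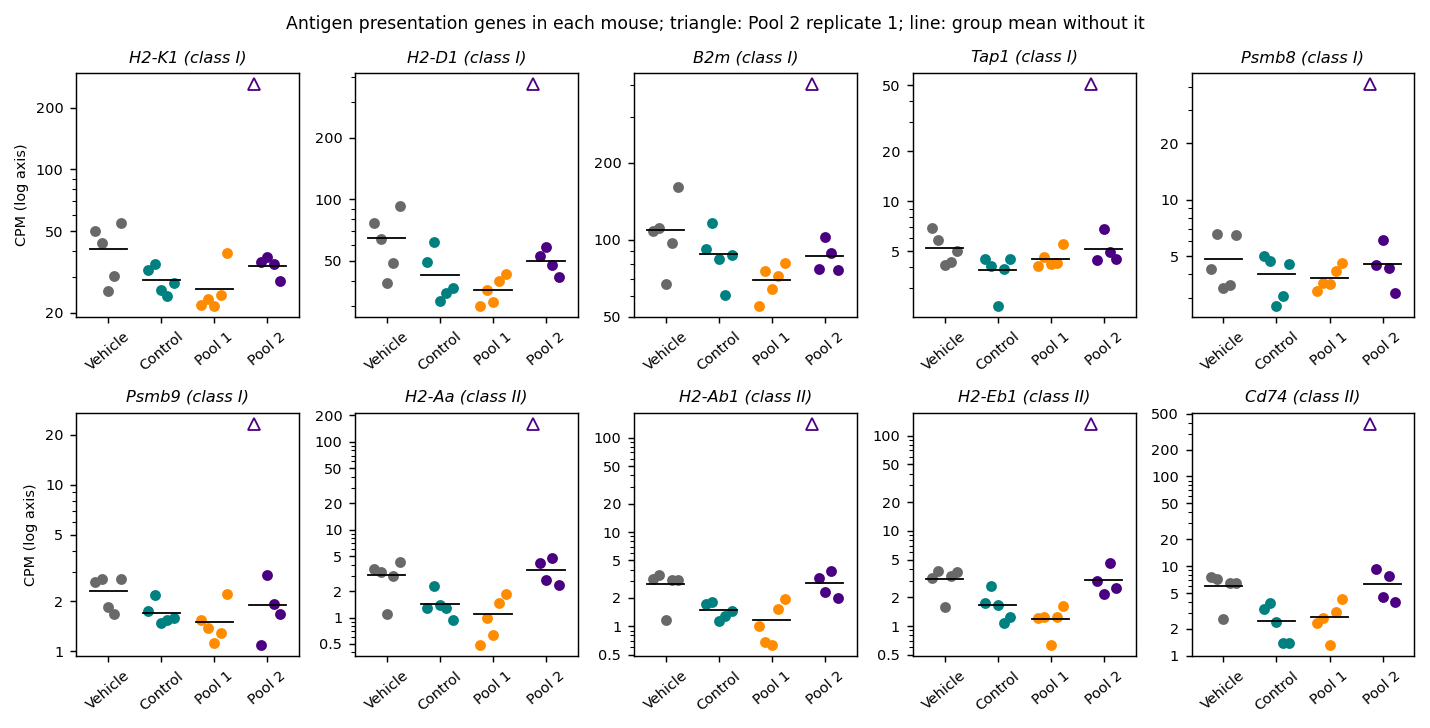
Level of each of the 10 genes in every mouse, in CPM on a log axis that differs between panels, by group on the horizontal axis; filled points are mice, the open triangle is Pool 2 replicate 1 and the line is the group mean without it. The triangle is the highest of 20 in every panel, and for the class II genes the remaining Pool 2 mice sit within or near the range of the Vehicle mice and above most Control and Pool 1 mice.

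Pool 2 replicate 1 had the highest level of all 20 libraries for all 10 genes. Its class I genes were 4.88 to 12.9 times the median of the other Pool 2 mice, and its class II genes were 47.0 to 63.3 times that median. Cd74 was read 8524 times there (390 CPM), 42.6 times the highest of the 19 other libraries. H2-Aa, the class II alpha chain, was read 3537 times (162 CPM), 34.0 times the highest of the others. H2-Ab1 and H2-Eb1, class II beta chains, reached 142 and 134 CPM. Psmb8 and Psmb9, inducible subunits of the immunoproteasome, were at 41.3 CPM (2.72 to 6.58 in the 19 others) and 23.3 CPM (1.09 to 2.87). All of these values lay far outside the range of the other mice and rested on 509 or more reads. When all 25190 genes were ordered by their excess in this library over the mean of the 19 others, Cd74, H2-Aa, H2-Ab1 and H2-Eb1 took ranks 1, 2, 3 and 4. Psmb9 and Psmb8 ranked 34 and 44, and Tap1, a chain of the peptide transporter, ranked 36. H2-K1, H2-D1 and B2m ranked 51, 55 and 116.

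Several regulators of these genes stood high in the same mouse. Ciita, the coactivator of class II genes, was at 8.09 CPM, against 0 to 0.428 CPM in the 19 others, 2 of which had no read. Nlrc5, its counterpart for class I genes, was at 37.5 CPM against 0.473 to 3.68. Irf1, which carries the interferon signal, was at 47.1 CPM against 5.34 to 11.1. Rfx5 (21.8 CPM, within 17.6 to 26.2) and Rfxap (22.4 CPM, within 19.9 to 31.6), subunits of the constitutive factor that recruits the coactivators, were inside the range of the other libraries, whereas Rfxank, another subunit, was above it at 18.0 CPM against 11.8 to 16.2. The 15 listed interferon response genes summed to 357 CPM in this mouse, against 29.2 to 77.0 CPM in the others.

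Markers of several cell types stood apart in Pool 2 replicate 1 as well. The 12 microglia markers summed to 1472 CPM, against 459 to 745 CPM in the 19 others, and 10 of the 12 were above the range of the others. Among markers of resting microglia, Tmem119 was at 50.6 CPM (19.6 to 30.5) and Cx3cr1 at 112 CPM (47.8 to 77.3), both above that range, whereas P2ry12 was inside it at 43.4 CPM (29.8 to 45.6), as was Fcrls at 28.6 CPM (21.3 to 44.7). The 5 monocyte and neutrophil markers found in the table, of 6 listed, summed to 9.64 CPM (0.202 to 1.95), and the 7 T cell markers to 10.1 CPM (0.673 to 2.33). Blood-derived cell markers were thus at low levels, yet above those of every other library. Astrocyte markers summed to 2791 CPM (1118 to 1767), erythrocyte markers to 182 (34.8 to 97.7), endothelial markers to 244 (85.1 to 197), dendritic cell markers to 29.3 (14.9 to 24.9) and B cell markers to 41.1 CPM (11.7 to 34.9). Border macrophage markers (8.96 CPM, within 3.59 to 14.3) and meningeal fibroblast markers (49.8 CPM, within 27.0 to 129) were inside the range of the others. The sums of choroid plexus markers (91.0 CPM against 103 to 8856) and hippocampal neuron markers (3640 against 3660 to 5049) were below the range of the others. Of the neuron markers, Snap25 was below its range (1543 CPM against 1789 to 2837). Neurod6, Wfs1, Fibcd1, Prox1 and Slc17a7 were each inside theirs, so the neuron markers were not low as a set. In bulk tissue, more cells of a type and more RNA per cell cannot be told apart, and the part of these cell types in the levels of the antigen presentation genes was not tested.

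**Figure D2:**
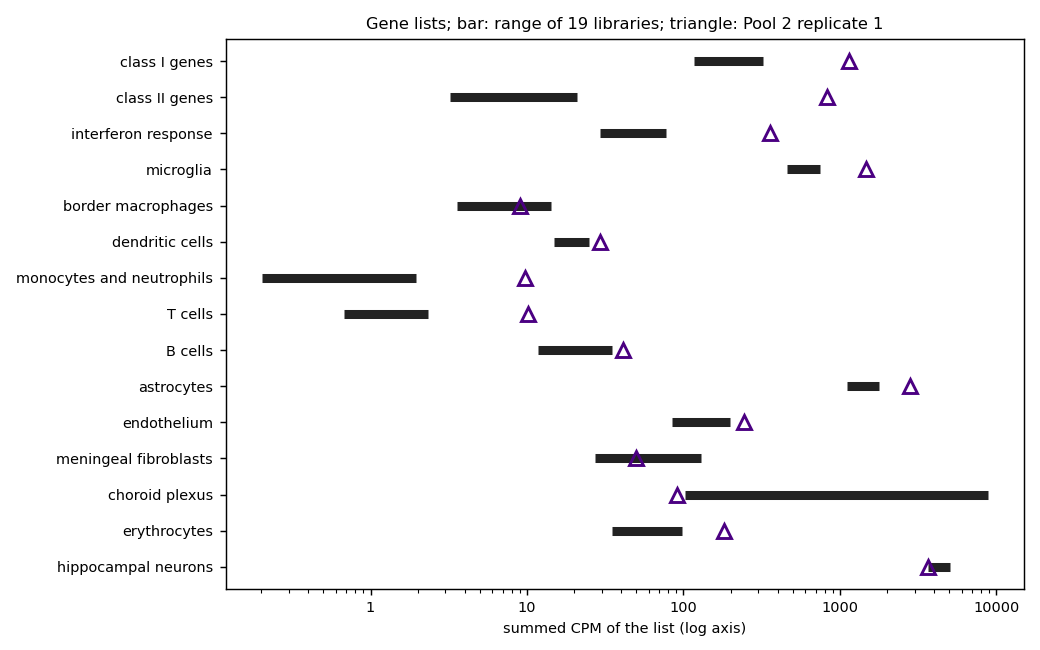
Summed CPM of each gene list on a log axis; the black bar runs from the lowest to the highest of the 19 libraries and the open triangle is Pool 2 replicate 1. The triangle lies at 827 CPM for the class II genes, against 3.20 to 20.9 in the other libraries, and inside the bar for border macrophage and meningeal fibroblast markers.

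The central question of the study, whether sRNAs from patients act differently from those of unaffected people, was addressed by comparing each patient pool with Control. For Pool 1, no antigen presentation gene passed the threshold against Control. A gene was counted as changed where edgeR's quasi-likelihood test gave an unadjusted p under 0.05 and the log2 fold change was 0.3 or more in size, which is the threshold of the study, and adjusted p is given beside it. None of the 10 genes passed in 20 or in 19 libraries, where 3.48% and 3.73% of all genes did. The log2 fold changes ran from -0.48 to 0.22 in both sets, with a median of -0.21, against -0.01 for all genes, and the smallest unadjusted p was 0.0886, for B2m over 19 libraries. The largest difference was that of H2-Eb1, at -0.48 ± 0.29 (SE, 19 libraries), and the exact permutation test gave p = 0.206.

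For Pool 2, the class II genes were higher than in Control in both sets of libraries, but no gene passed an adjusted threshold. Over 20 libraries, 9 of the 10 genes passed as higher (5 of 6 class I and 4 of 4 class II), against 5.20% of all genes, with adjusted p from 0.445. Class II log2 fold changes then lay between 4.11 and 5.07, with standard errors of 1.07 to 1.23, and class I values between 0.77 and 1.88. Without Pool 2 replicate 1, 5 of 10 passed (1 of 6 class I and 4 of 4 class II), against 3.31% of all genes.

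H2-Aa was read at 1.30, 2.26, 1.38, 1.27 and 0.929 CPM in Control replicates 1 to 5, and at 162, 4.21, 2.67, 4.76 and 2.36 CPM in Pool 2 replicates 1 to 5. Every Pool 2 mouse was above every Control mouse, and the 4 mice other than replicate 1 averaged 3.50 ± 1.16 CPM (SD, n = 4), against 1.43 ± 0.497 (n = 5) in Control. Over 19 libraries the log2 fold change was 1.29 ± 0.37 (SE), with p = 0.00201 and an adjusted p of 0.658 in edgeR, and the exact permutation test gave p = 0.0159.

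Cd74, on chromosome 18 (60803848 to 60812652), chaperones the class II chains and blocks their groove. It was read at 3.35, 3.85, 2.35, 1.39 and 1.37 CPM in Control mice and at 390, 9.15, 4.50, 7.80 and 3.95 CPM in Pool 2 mice. Its groups did not overlap either, with means of 6.35 ± 2.53 CPM (SD, n = 4) without Pool 2 replicate 1 and 2.46 ± 1.13 (n = 5) in Control. The log2 fold change over 19 libraries was 1.37 ± 0.37 (edgeR p = 0.00165, adjusted p = 0.640, exact permutation p = 0.0159).

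H2-Ab1 was read at 1.74, 1.82, 1.15, 1.27 and 1.46 CPM in Control and at 142, 3.23, 2.33, 3.84 and 2.02 CPM in Pool 2. All Pool 2 values were above all Control values, and the log2 fold change over 19 libraries was 0.94 ± 0.31 (adjusted p = 0.782 in edgeR, exact permutation p = 0.00794, the smallest that 4 against 5 mice allow). H2-Eb1 was read at 1.74, 2.66, 1.66, 1.07 and 1.24 CPM in Control and at 134, 3.00, 2.17, 4.55 and 2.53 CPM in Pool 2. Its groups overlapped, with Control replicate 2 above Pool 2 replicates 3 and 5, and the log2 fold change over 19 libraries was 0.87 ± 0.29 (adjusted p = 0.782 in edgeR, exact permutation p = 0.0397). Groups without overlap, in the higher direction, were found for 3 of the 10 genes over 19 libraries, against 1.06% of all genes. H2-Aa rested on 21 to 57 reads per Control library and 55 to 114 reads per Pool 2 library other than replicate 1. When 1 further library was left out of the 19, all 4 class II genes still passed, except without Pool 2 replicate 4, where H2-Eb1 (0.60) did not. DESeq2 over the 19 libraries gave 0.108 as the smallest adjusted p, for Cd74.

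Among class I genes, the difference from Control was found in Pool 2 replicate 1 and was small elsewhere. Tap1 was read at 4.52, 4.09, 2.35, 3.94 and 4.47 CPM in Control and at 50.8, 4.44, 6.79, 4.92 and 4.47 CPM in Pool 2. The 4 other Pool 2 mice overlapped with Control, and Tap1 was the 1 class I gene past the threshold over 19 libraries, at 0.41 ± 0.19 on the log2 scale (edgeR p = 0.0433, adjusted p = 0.943, exact permutation p = 0.0714). H2-K1, a classical heavy chain, was read at 32.1, 34.7, 25.8, 24.2 and 27.9 CPM in Control and at 261, 35.4, 37.4, 34.5 and 28.5 CPM in Pool 2. Its log2 fold change went from 1.45 ± 0.53 over 20 libraries to 0.23 ± 0.21 over 19. B2m went from 0.77 ± 0.40 to -0.03 ± 0.20, so that its direction turned when 1 mouse was left out. H2-D1 (0.23 ± 0.23), Psmb8 (0.18 ± 0.23) and Psmb9 (0.14 ± 0.25 on the log2 scale) did not pass over 19 libraries either. With B2m at 86.1 ± 12.4 CPM (SD, n = 4) in Pool 2 and 88.0 ± 19.6 (n = 5) in Control, its difference was within the spread between mice.

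Pool 2 and Pool 1, the sRNAs of separate patient cohorts, differed in class II genes. Over 20 libraries all 10 genes passed as higher in Pool 2, against 5.66% of all genes, with class I log2 fold changes of 1.10 to 2.02 and class II values of 4.59 to 5.00. Over 19 libraries, 4 of 4 class II genes and 0 of 6 class I genes passed, against 3.67% of all genes. Groups without overlap were found for H2-Aa, H2-Ab1 and H2-Eb1, against 1.45% of all genes. At an unadjusted p under 0.05 the class I genes also numbered 0, and the smallest edgeR p among them was 0.0519, for H2-D1, whose exact permutation p was 0.0317.

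In Pool 1 mice, H2-Aa was read at 0.485, 0.986, 0.631, 1.47 and 1.87 CPM, all below the lowest Pool 2 mouse at 2.36 CPM. The log2 difference over 19 libraries was 1.68 ± 0.37 (edgeR adjusted p = 0.142, exact permutation p = 0.0159). H2-Eb1, at 1.21, 1.26, 0.631, 1.25 and 1.62 CPM in Pool 1, differed by 1.35 ± 0.30 (adjusted p = 0.142, exact permutation p = 0.00794). H2-Ab1, at 1.01, 0.672, 0.631, 1.51 and 1.95 CPM in Pool 1, differed by 1.29 ± 0.31 (edgeR adjusted p = 0.168), and its highest Pool 1 value was close to the lowest Pool 2 value of 2.02 CPM. Cd74 was read at 2.31, 2.65, 1.31, 3.10 and 4.24 CPM in Pool 1, so that Pool 1 replicate 5 was above Pool 2 replicate 5 (3.95 CPM), and it differed by 1.22 ± 0.37 (edgeR adjusted p = 0.490, exact permutation p = 0.0238). DESeq2 over the same 19 libraries gave adjusted p of 0.00640 for H2-Aa, 0.00878 for H2-Eb1, 0.0272 for H2-Ab1 and 0.119 for Cd74, so that whether the difference passed an adjusted threshold depended on the tool.

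**Figure D3:**
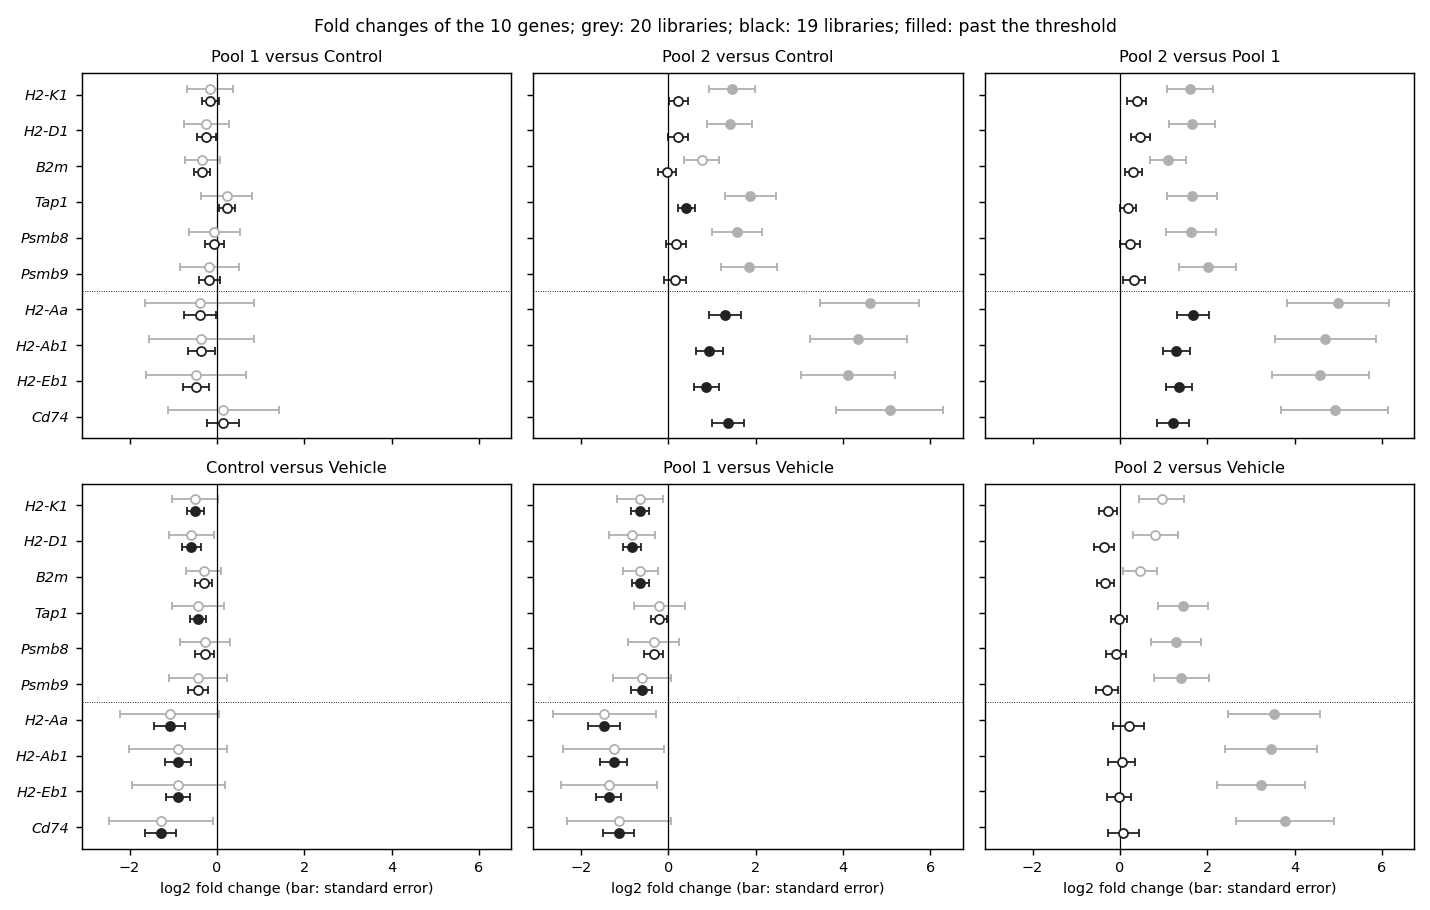
Log2 fold change of each gene (points) with its standard error (bars) in the 6 comparisons, over 20 libraries (grey) and over the 19 without Pool 2 replicate 1 (black); filled points passed the threshold and the dotted line divides class I from class II genes. Grey points move far to the right only where Pool 2 is compared, and grey bars are wider everywhere because all groups share 1 estimate of the spread.

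Comparing Control with Vehicle sets the sRNA mixture from people without schizophrenia against artificial cerebrospinal fluid alone, and does not speak for human sRNA of other sources. Over 20 libraries none of the 10 genes passed, at an unadjusted p under 0.05 as well as at the full threshold, where 3.41% of all genes were called lower. Over 19 libraries the fold changes were nearly the same but their errors smaller, and 7 of 10 genes passed as lower in Control (3 of 6 class I and 4 of 4 class II), against 3.88% of all genes. Neither group holds Pool 2 replicate 1, which bore on this comparison through the spread that all groups share. The smallest adjusted p was 0.644 in edgeR and 0.237 in DESeq2 over 19 libraries.

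Vehicle mice had H2-Aa at 3.54, 3.33, 1.09, 2.94 and 4.33 CPM, which is 3.05 ± 1.21 (SD, n = 5). Control was lower by a log2 fold change of -1.08 ± 0.35 (SE), and the exact permutation test gave p = 0.0397. Cd74 was at 7.50, 7.14, 2.54, 6.54 and 6.42 CPM in Vehicle, with a log2 fold change of -1.29 ± 0.36 (exact permutation p = 0.0238). H2-Ab1 (3.16, 3.46, 1.17, 3.07 and 3.07 CPM in Vehicle) changed by -0.90 ± 0.29 on the log2 scale. H2-Eb1 (3.16, 3.77, 1.57, 3.33 and 3.68 CPM) changed by -0.88 ± 0.28. For all 4 genes, Vehicle replicate 3 was the lowest Vehicle mouse and lay among the Control mice, and the other 4 Vehicle mice were above every Control mouse. Of class I genes, H2-K1 (-0.50 ± 0.20), H2-D1 (-0.59 ± 0.21) and Tap1 (-0.43 ± 0.18) passed. Their exact permutation p were 0.119, 0.0873 and 0.0714, and the groups overlapped.

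Against Vehicle, Pool 1 was lower in both classes. None of the 10 genes passed over 20 libraries, where 4.28% of all genes were called lower. Over 19 libraries 8 of 10 passed as lower (4 of 6 class I and 4 of 4 class II), against 4.87% of all genes, and again both groups are the same 10 mice in both sets. H2-Eb1 changed most clearly, by -1.36 ± 0.28 on the log2 scale (edgeR p = 6.92e-05, adjusted p = 0.145, exact permutation p = 0.0159). H2-Aa changed by -1.47 ± 0.36, H2-Ab1 by -1.26 ± 0.30 and Cd74 by -1.14 ± 0.35.

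The class I heavy chain H2-D1 was at 76.6, 64.0, 39.2, 49.0 and 93.2 CPM in Vehicle and at 30.1, 36.1, 31.5, 40.0 and 43.1 CPM in Pool 1. Vehicle replicate 3 lay among the Pool 1 mice and the other Vehicle mice above them, with a log2 fold change of -0.83 ± 0.21 (edgeR adjusted p = 0.331, exact permutation p = 0.0238). B2m was at 108, 111, 67.4, 96.7 and 161 CPM in Vehicle and at 55.2, 75.5, 64.3, 71.9 and 81.3 CPM in Pool 1, a log2 fold change of -0.64 ± 0.19. H2-K1 (-0.65 ± 0.20) and Psmb9 (-0.61 ± 0.24) passed as well, whereas Tap1 (-0.21 ± 0.18) and Psmb8 (-0.34 ± 0.22) did not. DESeq2 over 19 libraries gave adjusted p of 0.00446 for H2-Eb1, 0.0222 for H2-Aa, 0.0267 for H2-Ab1 and 0.0272 for H2-D1, values that edgeR did not reach.

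The class II genes of Pool 2 mice other than replicate 1 differed from those of Vehicle mice by less than their standard error. Over 20 libraries 7 of 10 genes passed as higher in Pool 2 (Tap1, Psmb8, Psmb9 and the 4 class II genes), against 2.80% of all genes, with exact permutation p of 0.333 or more for each of the 7. Over 19 libraries 0 of 10 passed, at an unadjusted p under 0.05 too, against 1.89% of all genes. Class II log2 fold changes then lay between -0.02 and 0.20, with standard errors of 0.28 to 0.36. All 6 class I genes had values below 0, from -0.36 for H2-D1 to -0.02 for Tap1. With Vehicle replicate 3 left out of the 19, 3 class I genes passed as lower in Pool 2, and with Pool 2 replicate 3 left out 1 did.

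The class II genes ordered the mice in nearly the same way. Over the 19 libraries, Spearman's rho between class II genes was 0.895 to 0.942 over the 6 pairs. Pairs of class I genes reached 0.574 to 0.921 (15 pairs, median 0.721), and pairs across classes 0.447 to 0.849 (24 pairs, median 0.643). These are descriptions over mice that share groups and normalisation, and no test was made of them. Their summed level was 15.9 to 17.7 CPM in Vehicle mice other than replicate 3 (6.38 CPM), 5.00 to 10.6 in Control, 3.20 to 9.68 in Pool 1 and 10.9 to 20.9 CPM in Pool 2 mice other than replicate 1. Summed class I levels overlapped more, with 141 to 323 CPM in Vehicle, 128 to 223 in Control, 116 to 176 in Pool 1 and 156 to 214 CPM in Pool 2 without replicate 1.

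Of genes outside the set with a mean of at least 1 CPM (14787 candidates), those whose level followed the class II mean most closely over the 19 libraries were A2m (rho = 0.895), Lyz2 (0.888), Emilin2 (0.865), Ikbke (0.854) and Mmp2 (0.828). Lyz2 encodes a lysozyme of myeloid cells and Mmp2 a protease that degrades matrix. For the class I mean they were Ifitm3 (0.930), Ctsh (0.926), Tmem173 (0.923), Arhgdib (0.907) and Anxa3 (0.900). Ifitm3 is an interferon-induced antiviral membrane protein, and Tmem173 encodes STING, a sensor adaptor of cytosolic DNA signalling. With Pool 2 replicate 1 included, rho for the same 10 genes was between 0.844 and 0.940.

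Class II genes are made by few cell types in brain, so the markers of those and other cells are given beside them. For scale, 3.31%, 3.67% and 1.89% of all genes passed as higher in Pool 2 than in Control, Pool 1 and Vehicle over 19 libraries. Over 20 libraries these shares were 5.20%, 5.66% and 2.80%. Genes lower in Pool 1 than in Vehicle were 4.87% of all over 19 libraries and 4.28% over 20. Border macrophage markers, 7 genes led by Mrc1, summed to 4.34 to 8.98 CPM in Vehicle, 4.80 to 6.32 in Control, 3.59 to 7.31 in Pool 1 and 5.92 to 14.3 CPM in Pool 2 without replicate 1. Over 19 libraries, 4 of the 7 passed as higher in Pool 2 than in Control (median log2 fold change 0.92) and 5 of 7 as higher than in Pool 1 (1.05), and 3 of 7 as higher than in Vehicle (0.66), whereas 0 of 7 passed in Control or Pool 1 against Vehicle. Mrc1, the mannose receptor, was higher by 0.85 ± 0.25 and 1.05 ± 0.26 in those comparisons. Meningeal fibroblast markers passed as higher in Pool 2 over 19 libraries for 2 of 6 against Control and 5 of 6 against Pool 1, and over 20 libraries for 1 and 3 of 6. Pool 2 replicates 2 and 4, with the highest class II sums (19.6 and 20.9 CPM), had the highest border macrophage sums of the 19 libraries (11.4 and 14.3 CPM), and replicate 4 had the highest meningeal fibroblast sum (129 CPM). Pool 2 replicate 5 came next in border macrophage markers (9.71 CPM), yet had the lowest class II sum of Pool 2 (10.9 CPM). Its meningeal fibroblast sum was 75.9 CPM, and that of Pool 1 replicate 5 was 74.4 CPM at a class II sum of 9.68 CPM. Vehicle mice other than replicate 3 had class II sums nearly as high at border macrophage sums of 4.34 to 8.98 CPM, inside the range of the Control and Pool 1 mice except for replicate 5.

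Of the 12 microglia markers, 4 passed as higher in Pool 2 than in Control over 20 libraries, 8 as higher than in Pool 1 and 1 as higher than in Vehicle. Over 19 libraries 0, 1 and 0 did. In Pool 1, 2 of 12 were lower than in Vehicle over 20 libraries and 3 over 19, and 0 and 1 were lower than in Control. None passed between Control and Vehicle in either set. Their sums were 501 to 734 CPM in Vehicle, 459 to 690 in Control, 471 to 554 in Pool 1 and 478 to 745 CPM in Pool 2 without replicate 1. Dendritic cell markers passed as higher in Pool 2 for 3 of 8 against Control, 5 of 8 against Pool 1 and 2 of 8 against Vehicle over 20 libraries, and for 1, 4 and 1 of 8 over 19. Astrocyte markers passed as higher in Pool 2 than in Pool 1 for 4 of 6 in both sets (median log2 fold change 0.58 over 19 libraries), and as lower in Pool 1 than in Control for 1 of 6 over 20 libraries and 2 of 6 over 19. Monocyte and neutrophil markers passed as higher in Pool 2 than in Pool 1 for 5 of 5 over 20 libraries and 2 of 5 over 19 (median 1.52), and T cell markers for 5 of 7 and 1 of 7. Xcr1 was without a read in 12 of 20 libraries and Ccr7 in 13, and Cd3e, which defines T cells, in 7. All 4 choroid plexus markers passed as lower in Pool 1 than in Vehicle, and their sum reached 8856 CPM in Vehicle replicate 4 with a class II sum of 15.9 CPM. The part of these cells in the class II differences was not tested.

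**Figure D4:**
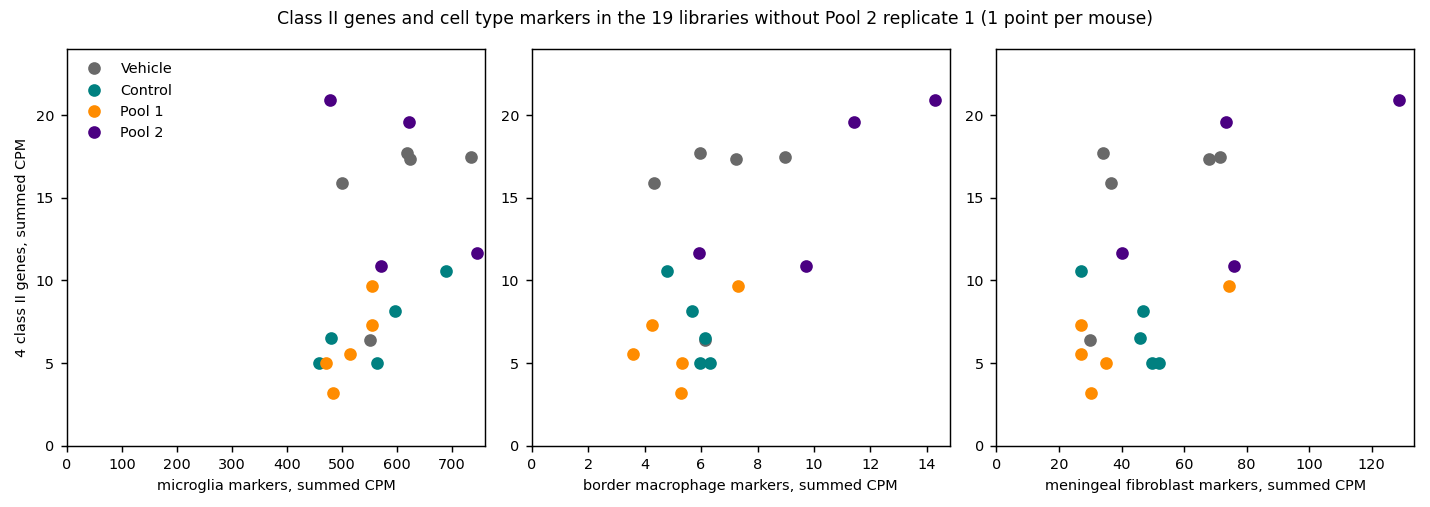
Summed CPM of the 4 class II genes (vertical) against summed CPM of microglia, border macrophage and meningeal fibroblast markers (horizontal), 1 point per mouse, for the 19 libraries without Pool 2 replicate 1. Pool 2 replicates 2 and 4 lie to the upper right for border macrophage markers, with sums of 11.4 and 14.3 CPM, whereas 4 Vehicle mice lie high on the class II axis at border macrophage sums of 4.34 to 8.98 CPM.

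The wider pathway was described with 46 further genes in 7 lists. Over 20 libraries 24 of them passed as higher in Pool 2 than in Control and 27 as higher than in Pool 1, with 0 lower in either. The share of all genes was 5.20% and 5.66%. Without Pool 2 replicate 1 these counts were 2 of 46, near the 3.31% of all genes, and 8 of 46, above the 3.67% of all genes, with median log2 fold changes over the 46 genes of 0.14 and 0.19. Ciita (3.65 ± 1.08), Nlrc5 (3.19 ± 0.92), H2-Q7 (3.04 ± 0.94) and H2-M3 (0.87 ± 0.28), each past the threshold against Control over 20 libraries, were not past it over 19. Cd40, which licenses antigen-presenting cells on contact with helper T cells, passed in both sets, by 1.44 ± 0.35 over 20 libraries and 1.18 ± 0.35 over 19. Its edgeR adjusted p was 0.408 and 0.658. Cd40 rested on few reads, with a Control mean of 0.278 CPM and 0.138 to 0.918 CPM over the 19 libraries, where 3 reads are 0.117 to 0.146 CPM.

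By role, the other class I molecules, the largest list with 12 of the 46 genes, held many of the changes over 19 libraries. Against Pool 1, 5 of 12 passed as higher in Pool 2, where 3.67% of all genes did. They were H2-Q7 (1.46 ± 0.44), H2-K2 (0.78 ± 0.22), Mr1 (0.52 ± 0.19), H2-T23 (0.48 ± 0.17) and Fcgrt (0.43 ± 0.15). Mr1 presents vitamin metabolites to MAIT cells, H2-T23 encodes the non-classical molecule Qa-1 and Fcgrt the neonatal Fc receptor. Against Vehicle, 5 of 12 were lower in Control and 6 of 12 in Pool 1, against 3.88% and 4.87% of all genes. In Pool 1, H2-Q7 changed by -2.16 ± 0.41 (adjusted p = 0.124 in edgeR) and H2-Q4 by -0.83 ± 0.23. H2-Q6 and H2-Q7 are near-identical copies, and reads that fit both were left out by the counting, so their values are uncertain.

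Of the 9 other class II and processing genes, 2 passed as higher in Pool 2 than in Pool 1 over 19 libraries and 0 against Control. H2-DMb1, part of the editor that swaps the invariant chain fragment for peptide, was lower than in Vehicle by -0.75 ± 0.30 in Control and -1.23 ± 0.31 in Pool 1. Among 8 transcriptional regulators, 2 were lower in Control than in Vehicle over 19 libraries, Nlrc5 among them (-1.04 ± 0.37), and 0 over 20. Between Pool 2 and either Control or Pool 1, 0 of 8 passed over 19 libraries. Over 20 libraries, 5 of 8 passed as higher in Pool 2 in each of these comparisons. Peptide loading genes passed in no comparison over 19 libraries (0 of 7), although 3 passed against Control and 4 against Pool 1 over 20. The immunoproteasome and activator genes listed beyond the 10, Psmb10, Psme1, Psme2 and Pomp, passed in none of the 6 comparisons in either set. Neither did the constitutive subunits Psmb5, Psmb6 and Psmb7, which Psmb8, Psmb9 and Psmb10 replace. Psmb8 and Psmb9 themselves passed as higher in Pool 2 against Control, Pool 1 and Vehicle over 20 libraries, and in none of these over 19. In all, 10 of the 46 genes were lower in Control than in Vehicle and 11 in Pool 1 over 19 libraries, against 3 and 4 over 20. Of all genes, 3.88% and 4.87% were called lower over 19 libraries, and 3.41% and 4.28% over 20. Between Pool 1 and Control, 0 passed over 20 libraries and 1 over 19, H2-Q7 at -1.02 ± 0.43. Against Vehicle, 9 of the 46 passed as higher in Pool 2 over 20 libraries and 1 over 19, Fcgrt at 0.40 ± 0.15. Of all genes, 2.80% and 1.89% did.

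Interferon response genes followed the same split. All 15 passed as higher in Pool 2 than in Control over 20 libraries, and 4 of 15 (Oas1a, Rsad2, Cxcl10 and Zbp1) over 19, with a median log2 fold change of 0.44. Of all genes, 5.20% and 3.31% did. Control means were low for Oas1a (0.346), Cxcl10 (0.313) and Zbp1 (0.163 CPM), where 3 reads are 0.119 to 0.138 CPM, and that of Rsad2 was 1.33 CPM. Against Vehicle, 5 of 15 were lower in Control and 3 of 15 in Pool 1 over 19 libraries, and 0 of 15 passed in Pool 2. The shares of all genes called lower were 3.88% in Control and 4.87% in Pool 1.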

How the data were processed

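Poly(A) RNA of hippocampus was sequenced from 20 mice, 5 in each of 4 groups, as stranded libraries read as single ends. The authors checked reads with FastQC 0.11.5, aligned them to mm10 with STAR against GENCODE and deposited whole read counts per gene, counting reads that map to 1 place, so reads shared by near-identical H2 genes are missing; the strand setting of the counting is not given in the sources used here. Counts were normalised by TMM in edgeR 4.0.16 (R 4.3.3) and given as CPM. All 25190 genes were fitted in 1 quasi-likelihood model of the 4 groups with robust estimation of the spread, over 20 libraries and over 19 without Pool 2 replicate 1, with Benjamini-Hochberg adjustment over all genes. Exact two-sided permutation tests used log2 CPM (prior count 2) and cannot give less than 0.00794 for 5 against 5 or 4 against 5 mice. The fit was tested on simulated data. Alternatives were DESeq2 1.42.0, its size factors, filters on low counts (mean of 10), the default spread, the compared groups alone, a replicate block and libraries left out. Counts of every 2 replicates of a group differed by more than sampling noise, with a chi-square of 7.59 to 60.8 for each degree of freedom, so every library counted once. The p-values measure the spread between these mice.

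Genes named outside the set were those of the pathway lists past the threshold, up to 5 per comparison by p, and the 5 genes most like each class; others were chosen after their values were seen. The genes and lists were chosen with earlier results of these data known, so no count over them is independent evidence. Lists held 15 genes for interferon response and 12 for microglia, with none trimmed by its values. Promoter windows came from RefSeq (GRCm38.p6). A count of 0 allows up to 3 reads. Some results on single genes and a motif are not reported here.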

Additional observations from a re-analysis of the deposited data

Results flagged for a closer look

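In 40 groups of 5 mice (10 genes in 4 groups), the highest or lowest mouse was tested against its own group with Dixon's ratio at the 95% level, which chance alone exceeds in about 5% of groups. It was exceeded in 15 groups, 10 of them through Pool 2 replicate 1, at 261 CPM for H2-K1, 366 for H2-D1, 404 for B2m, 50.8 for Tap1, 41.3 for Psmb8, 23.3 for Psmb9, 162 for H2-Aa, 142 for H2-Ab1, 134 for H2-Eb1 and 390 CPM for Cd74. The 10 genes varied together over mice, and Pool 2 replicate 1 was already known to stand apart. The 40 groups are therefore not independent tests, and the 15 cannot be set against that 5%. Vehicle replicate 3 was far below the other Vehicle mice for H2-Ab1 (1.17 CPM), H2-Eb1 (1.57 CPM) and Cd74 (2.54 CPM). With it left out of the 20 libraries, the Control minus Vehicle log2 difference of Cd74 was -1.48 and the Pool 1 minus Vehicle one -1.33. Pool 1 replicate 5 was far above its group for H2-K1 (39.2 CPM), and Control replicate 3 far below its group for Tap1 (2.35 CPM).

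The difference of Pool 2 from Control was set against that of Pool 1 from Control, which is the comparison of Pool 2 with Pool 1. It had an exact permutation p under 0.05 both with and without Pool 2 replicate 1 for H2-D1 (log2 difference 1.65 over 20 libraries), H2-Aa (5.00), H2-Ab1 (4.71), H2-Eb1 (4.59) and Cd74 (4.92). Over 19 libraries the corresponding values were 0.47, 1.68, 1.29, 1.35 and 1.22.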

How the results depend on the processing

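Of 1170 values of single genes under the alternatives, 984 kept their direction and side of the threshold, 84 lost the threshold, 68 gained it and 34 turned sign. Without Pool 2 replicate 1, the genes past the threshold as higher in Pool 2 went from 9 to 5 against Control, from 10 to 4 against Pool 1 and from 7 to 0 against Vehicle, and over all libraries left out singly these counts ranged from 5 to 10, 4 to 10 and 0 to 8. Fits of the 2 compared groups alone gave 4 higher in Pool 2 against Control, 5 against Pool 1 and 4 against Vehicle, and 6 lower in Control against Vehicle, 8 lower in Pool 1 against Vehicle and 1 lower in Pool 1 against Control. DESeq2 over 20 libraries gave no p for the 4 class II genes and 1 class I gene, and called 4, 5 and 2 of the other 5 higher in Pool 2 against Control, Pool 1 and Vehicle. Further alternatives over the 19 libraries were chosen after seeing the data. There, DESeq2 and the default spread each gave 5, 5 and 0 higher in Pool 2, 7 lower in Control and 8 lower in Pool 1 against Vehicle. Leaving out 1 further library gave 3 to 5 higher in Pool 2 against Control, 4 to 6 against Pool 1, and 0 higher and 0 to 3 lower against Vehicle. It also gave 5 to 9 lower in Control and 7 to 8 lower in Pool 1 against Vehicle, and 0 to 1 lower in Pool 1 against Control. The cause of these changes was not tested.

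The replicate numbers of the labels did not pair the mice, since deviations of same-numbered mice from their group means correlated between -0.381 and 0.301, and every pair exceeded 0.1 in none of the 6 comparisons. With the replicate block, 5, 8 and 0 genes passed as higher in Pool 2 against Control, Pool 1 and Vehicle, and over 19 libraries 5, 6 and 0, with 7 lower in Control and 8 lower in Pool 1 against Vehicle. Over 19 libraries with the replicate block, B2m was -0.018 in Pool 2 against Control, and against Vehicle H2-K1 was -0.18, H2-D1 -0.28, B2m -0.31, Psmb8 -0.048 and Psmb9 -0.25 on the log2 scale. Psmb8 in Pool 1 against Control was 0.024 with the replicate block over 20 libraries.

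Other log2 values that turned sign were these. In Pool 2 against Control, B2m was -0.030 without Pool 2 replicate 1, with the robust and the default spread, and -0.039 in DESeq2, and with single libraries left out it ranged from -0.030 to 0.93. In Pool 2 against Vehicle without Pool 2 replicate 1, the robust and the default spread gave -0.27 for H2-K1, -0.36 for H2-D1, -0.34 for B2m, -0.021 for Tap1, -0.10 for Psmb8, -0.29 for Psmb9 and -0.016 for H2-Eb1. DESeq2 gave -0.27, -0.36, -0.34, -0.024, -0.10, -0.30 and -0.018 for these 7 genes. With single libraries left out of the 20, they reached up to 1.17 for H2-K1, 1.03 for H2-D1, 0.64 for B2m, 1.67 for Tap1, 1.53 for Psmb8, 1.68 for Psmb9 and 3.53 for H2-Eb1. In Pool 1 against Control, Psmb8 ranged from -0.17 to 0.029 and Cd74 from -0.066 to 0.38.

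Over all genes, those past the threshold numbered 876 in Pool 1 and 1566 in Pool 2 against Control, 1718 in Pool 2 against Pool 1, and 1285, 1345 and 1181 in Control, Pool 1 and Pool 2 against Vehicle. With a mean count of at least 10 they numbered 402, 969, 1133, 795, 795 and 703. With filterByExpr they numbered 426 and 960 against Control and 821, 776 and 723 against Vehicle. DESeq2 over 19 libraries gave 881 in Pool 2 against Control, 980 against Pool 1 and 784 against Vehicle, and the replicate block over 19 libraries gave 1035 in Pool 2 against Control. Class II genes rested on 12 to 235 reads per library in the 19, which limits their precision, and class II and class I levels of Pool 2 rest on 4 mice once replicate 1 is left out.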
